A study of Homo sapiens with 13 samples.

Results

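The H82-only intronic regions are stretches of open chromatin that lay inside protein-coding genes of H82 cells and were not listed in H146 cells. They were chosen by overlap, width and position. A region of the H82 atlas on chromosomes 1 to 22 was kept when it overlapped no H146 region by a single base and was at least 500 bp and under 2 kb wide. Its centre also had to lie in the body of a protein-coding gene and in no exon, with its nearest base over 1 kb from the transcription start site (TSS) of any protein-coding gene. Of 201148 H82 regions, 81223 had no overlap with H146, 25490 of those had the chosen width, 13779 of these were centred in a protein-coding gene, 12204 of these were outside exons, and 12049 were the members described here. They lay in 5290 of 19111 genes, or 27.7%. The 2 atlases together held 371134 regions on these chromosomes.

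H82 and H146 are long-established lines of small cell lung cancer (SCLC), both neuroendocrine, and H82 is of the NEUROD1 subtype. Accessible chromatin was mapped by ATAC-seq, in which a transposase cuts open DNA. The H82 libraries were 3 untreated and 3 exposed to 100 nM FHD-286, an inhibitor of the chromatin remodelling ATPases SMARCA4 and SMARCA2, for 14 days. The H146 libraries were 4 untreated and 3 exposed to the same dose for the same time. Each line is represented by 1 atlas that pools all of its libraries, 6 for H82 and 7 for H146, so a region is listed if it was open in any library of the line, and neither the effect of FHD-286 nor the spread between cultures can be measured from it. The atlases hold no read counts, so the depth behind a region is unknown, and the absence of an H146 region is not evidence that the site was closed there.

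Introns hold a large part of the enhancers of the human genome, short elements that bind transcription factors and act on promoters at a distance. NEUROD1 is a basic helix-loop-helix factor of neurons that binds an E-box. OTX2 and CRX are homeodomain factors of the retina and brain that bind the word TAATCC, and FOXA factors are forkhead proteins of endoderm and lung that open chromatin.

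The rule for the members did not use sequence, although the words compared were chosen with earlier results of these data known. The central 200 bp of 4 members are printed here because each holds both of the words that were denser in members than in both other intronic sets by the largest ratios, TAATCC and the NEUROD1 E-box CAGATG. They come from 11 windows, 1 from each of the 12 host genes with the most members except XKR6, for which no sequence was drawn, taken at the member with the most matches in its centre. Of these windows 6 hold both words, and the other two are not reported here. The printed windows are on the plus strand of hg38, 5′ to 3′, and capitals mark both words as they read on either strand.
ASTN2, chr9:116476150-116476349: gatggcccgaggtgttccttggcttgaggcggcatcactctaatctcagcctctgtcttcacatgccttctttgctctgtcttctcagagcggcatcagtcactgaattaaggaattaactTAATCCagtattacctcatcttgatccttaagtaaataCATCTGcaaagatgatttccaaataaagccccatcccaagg
SLC35F4, chr14:57660369-57660568: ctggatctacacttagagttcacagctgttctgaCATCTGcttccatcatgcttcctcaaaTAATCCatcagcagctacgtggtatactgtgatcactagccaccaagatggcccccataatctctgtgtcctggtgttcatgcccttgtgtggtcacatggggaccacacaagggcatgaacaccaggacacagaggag
LSAMP, chr3:117076113-117076312: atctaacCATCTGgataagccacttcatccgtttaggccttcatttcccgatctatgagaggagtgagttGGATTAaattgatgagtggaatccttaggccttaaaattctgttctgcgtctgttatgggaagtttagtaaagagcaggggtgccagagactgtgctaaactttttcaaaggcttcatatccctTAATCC
DLG2, chr11:85310485-85310684: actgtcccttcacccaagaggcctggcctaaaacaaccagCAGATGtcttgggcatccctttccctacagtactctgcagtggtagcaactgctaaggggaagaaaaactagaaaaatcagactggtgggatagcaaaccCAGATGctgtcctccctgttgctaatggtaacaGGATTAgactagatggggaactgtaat
The DLG2 window holds CAGATG at 2 places and TAATCC at 1. These windows lay between 63.2 kb (LSAMP) and 938.8 kb (ASTN2) from the 5′ end of their gene. They were picked for their matches and are examples, not typical members.

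Many intronic regions of H82 were absent from the H146 atlas, but as a share no more than among H82 regions at large. Of all 201148 H82 regions, of any width and place, 81223 had no overlap with H146. The members made up 36.5% of the H82 intronic regions of this width, and the corresponding H146-only regions, 3781 in number, made up 13.5% of those of H146. The remaining 20919 H82 regions that met every other condition overlapped H146 and are called shared. Members had a median width of 760 bp, with quartiles at 600 and 1033 bp, and covered 10395 kb in all. The limits of width cut through a continuous distribution. Within 50 bp of the lower limit there were 1636 members, and 2155 regions that were narrower and left out, and within 50 bp of the upper limit there were 42 members and 44 wider regions. The nearest H146 region was a median of 4902 bp away, and for 389 members it was within 500 bp. Close to the TSS limit, 177 members lay within 2 kb of a TSS.

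Members were spread thinly over many genes, with a dense tail. At least 5 members were found in 597 genes, or 3.12%. A single member was found in 2730 genes, 2 to 4 members in 1963, 5 to 9 in 453 and 10 or more in 144. Since 549 members lay in more than 1 gene, there were 12674 pairs of member and gene, and 15.5% of them fell in the genes with 10 or more. These counts describe what the rule selected and were not tested.

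Long genes held most of them. The median body of a host gene was 90.3 kb, against 27.9 kb for all genes, and it was 288 kb for the 597 genes with 5 members or more. The share of genes with a member rose from 5.96% of genes under 20 kb to 23.1% at 20 to 50 kb, 42.0% at 50 to 100 kb, 61.5% at 100 to 200 kb, 79.9% at 200 to 400 kb and 90.0% above 400 kb. The density changed far less, from 0.785 members per 100 kb of gene body in the shortest class to 1.06 at 200 to 400 kb and 0.775 in the longest. Over all gene bodies it was 0.96 per 100 kb for members and 0.30 for H146-only intronic regions. A high count of members in a gene therefore has to be read beside its length.

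**Figure D1:**
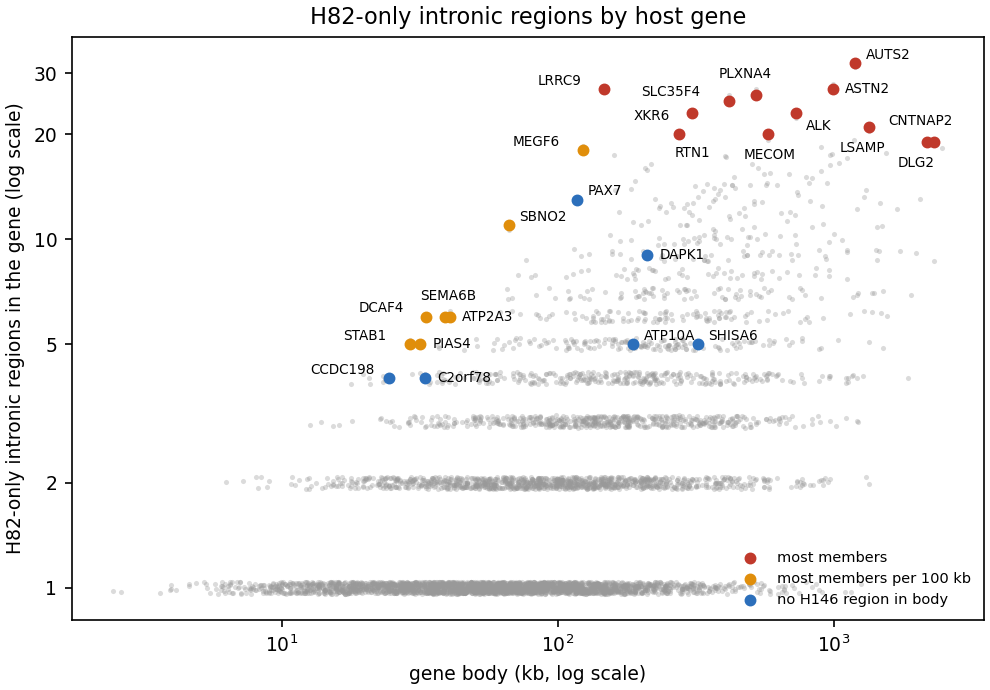
Number of H82-only intronic regions in each host gene (vertical axis, log scale, points moved slightly to separate them) against the length of the gene body in kb (log scale). Grey points are the host genes, and coloured points are the genes with the most members (AUTS2, 32), the most members per 100 kb (LRRC9, drawn in red, leads with 27 members in 147 kb) and the most members with no H146 region in the body (PAX7, 13).

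AUTS2, a neurodevelopmental gene whose protein joins a Polycomb complex, held the most members, 32 over 1195.2 kb, which is 2.68 per 100 kb. It also held 55 shared regions and 3 H146-only regions, so its introns were open in both lines and richer in H82. ASTN2, an astrotactin of neuron migration, held 27 members and 3 H146-only regions. PLXNA4, a receptor for semaphorin guidance cues, held 26 members, no H146-only region and 9 shared regions. Neither line had a region within 1 kb of the annotated 5′ end of PLXNA4, although H82 had 71 regions of any width in its body and H146 had 26. MECOM, a zinc-finger transcription factor gene, held 20 members and 3 H146-only regions.

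ALK, the receptor tyrosine kinase known from neuroblastoma, held 23 members and no H146-only region. Of these, 12 lay in a stretch between 131.2 and 207.7 kb from the 5′ end, and the 7 shared regions all lay beyond them, towards the 3′ end. The median distance from an ALK member to the nearest H146 region was 152 kb, against 2.34 kb in AUTS2 and 7.13 kb in PLXNA4. In AUTS2 and PLXNA4 the members were thus interspersed with H146 regions, whereas in ALK most of them stood far from any.

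**Figure D2:**
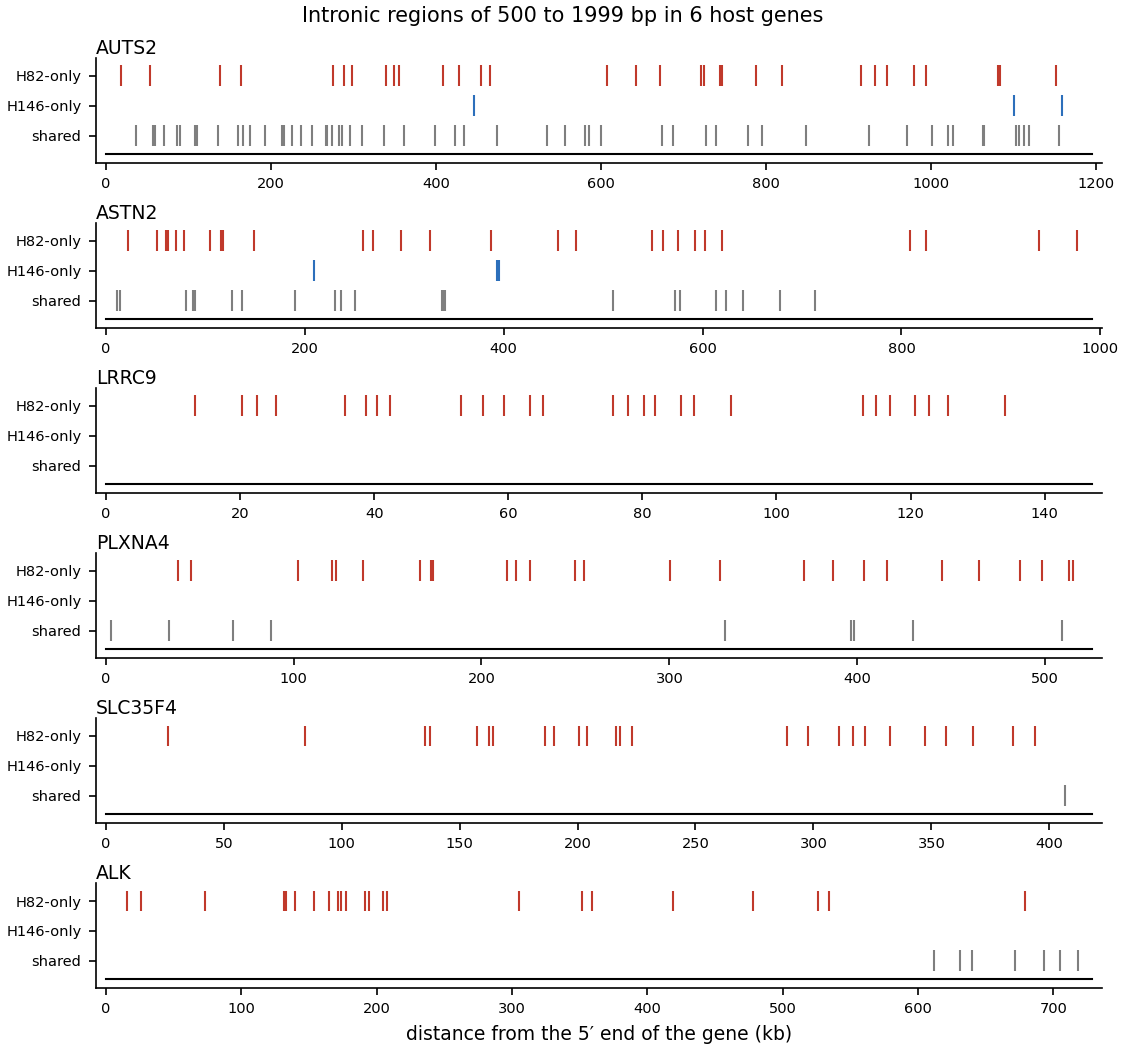
Position of intronic regions from 500 bp to under 2 kb in the 6 genes with the most members, as distance of the region's centre from the 5′ end of the gene (kb). Red marks are H82-only, blue H146-only and grey shared regions, and the black line is the gene body. In ALK all but 1 of the 23 members lie upstream of the 7 shared regions, whereas in AUTS2 the 32 members and 55 shared regions are mixed.

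Several genes of the synapse were also among the leading hosts. LSAMP, a cell adhesion protein of the limbic system, held 21 members and no H146-only region over 1337 kb. CNTNAP2, a neurexin-family adhesion gene, held 19 members over 2305 kb, or 0.824 per 100 kb, which was below the density over all genes. DLG2, a scaffold of the postsynaptic density, likewise held 19 at 0.874 per 100 kb. Both rank high by length rather than by density, which differs from the 4.95 per 100 kb of PLXNA4 and the 3.16 of ALK.

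A separate group of hosts lay on chromosome 14 in stretches that were densely covered in H82. LRRC9 held 27 members at 18.4 per 100 kb, the highest density of any gene with 5 or more, and H82 regions of all widths covered 51.7% of its body, against 1.89% in H146. SLC35F4, a solute carrier gene, held 25 members, was covered to 63.1% in H82 and 0.56% in H146, and contained an H82 region of 53705 bp. RTN1, a reticulon gene that marks neuroendocrine cells, held 20 members and was covered to 77.2% in H82 and 4.58% in H146. KCNH5, a potassium channel gene, held 18 and was covered to 36.2% and 2.20%. By comparison the covered share in H82 was 7.11% for ALK and 9.69% for PLXNA4. In such segments, extra copies of the DNA and higher accessibility per copy cannot be told apart from these files. XKR6 on chromosome 8 was intermediate, with 23 members and 25.8% of its body covered in H82 against 4.6% in H146. OTX2, on chromosome 14 as well, had 91.2% of its body covered in H82 and none in H146, but held no member, since all 3 of its H82 regions were 2 kb or wider.

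The genes with the highest density were mostly shorter than the median host gene of 90.3 kb, though longer than the 27.9 kb median of all genes. After LRRC9 came DCAF4, also on chromosome 14, with 6 members in 33.3 kb, and STAB1, a scavenger receptor gene, with 5 in 29.2 kb. SBNO2 held 11, PIAS4, a SUMO ligase gene, 5, and SEMA6B, a semaphorin gene, 6, all on chromosome 19. ATP2A3, a calcium pump gene, held 6 and MEGF6 held 18. The densities of the 8 genes ran from 14.6 to 18.4 per 100 kb. None of them held an H146-only intronic region, but only 2370 of all 19111 genes did. H82 regions of all widths covered 30.9% to 51.7% of their bodies.

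Of the 5290 host genes, 119 had no H146 region of any width in the body. This count was not set beside the share over all genes, so it is not read as a trait of host genes. PAX7, a paired-box transcription factor of neural crest and muscle stem cells, held 13 members in 118 kb, and neither line had a region at its annotated 5′ end. DAPK1, a death-associated protein kinase gene, held 9 and had a TSS region in H82 alone. ATP10A, a phospholipid flippase gene, and SHISA6, which encodes an auxiliary subunit of AMPA receptors, held 5 each, and C2orf78 and CCDC198 held 4 each. H82 covered 12.2% of PAX7 and 6.95% of DAPK1, so these 2 genes were covered far less than LRRC9, SLC35F4 and RTN1, whereas CCDC198, on chromosome 14, was covered to 45.2%.

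At the TSS, genes rich in members mostly did not differ between the lines. Among the genes with 5 or more members, 82.2% had a region within 1 kb of the annotated 5′ end in both lines, 6.53% in H82 alone, 1.34% in H146 alone and 9.88% in neither. Over all genes the shares were 76.2%, 4.93%, 1.87% and 17.0%. Both lines thus listed an open start for most of the genes in which the H82-only regions were frequent. Members occurred without H146-only regions in 3926 genes, beside them in 1364, and 1006 genes had H146-only regions and no member. Of the 597 genes with 5 or more members, 285 held no H146-only intronic region. Over all 19111 genes only 2370 held one, so lacking one was more frequent over all genes than among these 597 long genes. These counts were not tested.

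Gene lists of neurons, retina and other tissues were set beside these shares. In the synaptic adhesion list, 33 of 44 genes (75%) held a member, and in the list of voltage-gated calcium and potassium channels 27 of 36 (75%). The counts were 34 of 46 for neural transcription and RNA regulators, 22 of 30 for glutamate and GABA receptors, 28 of 42 for axon guidance and 25 of 38 for synaptic vesicle release. All of these exceed the 27.7% of all genes, but their genes are long. If each gene held a member as often as all genes of its size class, the synaptic adhesion list would have 29.6 such genes, the channel list 26.1, the neural regulator list 30.9, the receptor list 22.4, the guidance list 28.7 and the vesicle list 22.2. The neural lists therefore stood within 4 genes of what their length gives.

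By number of members the lists lay on either side of what their length gives. The axon guidance list held 167 members, where the density of its size classes gives 128, and PLXNA4 with 26 and EPHB2, an ephrin receptor gene, with 16 led it. The neural regulator list held 179 against 147.7, led by AUTS2 and by RBFOX1, a neuronal splicing factor gene, with 18. The synaptic adhesion list held 197 against 226.3 and had the lowest ratio of members to H146-only regions among these 6 lists, 1.88, against 3.2 over all genes. NTM held 17. The channel list held 129 against 108, the receptor list 96 against 103.9 and the vesicle list 78 against 83.1. Among channels and receptors, KCNH5 held 18, CACNA1C, the gene of a calcium channel pore, 12, GRIK1, a kainate receptor gene, 13, and GABBR2, a GABA receptor gene, 11. In the vesicle list, CADPS2 held 14 and CADPS 12, both genes of dense-core vesicle priming. The counts of members of these lists were not tested, and the lists cannot be called distinct from other genes.

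By the number of genes with a member, retinal genes lay above what their size gives and liver genes below it, and by the number of members both lay below. In the photoreceptor list 20 of 39 genes held a member, against 12.5 at the shares of their size classes, although its 38 members were fewer than the 54.0 given by density. Its leading genes were EYS, an extracellular matrix gene of photoreceptors, with 9 members, IMPG2, a matrix proteoglycan gene of the retina, with 4, RP1, a gene of the photoreceptor axoneme, with 4, and RORB, a nuclear receptor gene of the retina, with 3. None of IMPG2, RP1 and RORB held an H146-only region, and EYS held 3. In the hepatocyte list 6 of 39 genes held a member, against 13.2 by size, and there were 7 members against 24.7 by density. These differences were not tested. The T and B cell list had 16 of 40, against 18.8, and the fibroblast and matrix list 17 of 40, against 18.5, so tissues unrelated to SCLC were not uniformly poor in members. CD96, a lymphocyte receptor gene, held 13.

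Of the genes by which the study defined cell state, 14 neuroendocrine genes lie on these chromosomes. Members were found in 4 of them, and 3.6 would hold one by size. They held 30 members in all, where the density of their size classes gives 10.6. The 4 genes were RTN1 with 20, MYT1, a zinc-finger gene of neuronal fate, with 6, SRRM4, a neuronal splicing factor gene, with 3, and NCAM1, an adhesion gene used as an SCLC marker, with 1. Without RTN1 the list held 10 members, or 1.34 per 100 kb of gene body, against 0.96 over all genes. The value of 10.6 includes RTN1, which lies on chromosome 14 in a stretch densely covered in H82. NEUROD1, INSM1, CHGA, DLL3, GRP, FOXA1, FOXA2, NRSN1 and OTX2 held none, and apart from NRSN1, at 28.7 kb, they are under 17 kb long. Of 9 low-neuroendocrine genes, 2 held members and 2.9 would by size, with 3 members against 6.6 by density. NOTCH2 held 2 and WWTR1, the gene of the YAP partner TAZ, held 1. YAP1, REST, HES1, HEY1, TEAD2, AJUBA and CCN1 held none. Both lists come from the study of these cells and are not independent of it.

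In the ERBB family, the receptors and ligands that drive epithelial growth, 5 of 8 genes held members, as many as the 5.0 their size gives, and their 19 members were fewer than the 33.1 given by density. NRG1 and NRG2, genes of neuregulin ligands, held 7 each and NRG3 held 3, whereas the receptor gene EGFR held 1. Of 30 genes for subunits of SWI/SNF, the complex that FHD-286 inhibits, 12 held members and 11.7 would by size. DPF3, a neural and muscle subunit on chromosome 14, held 5, ARID1B held 4, and BCL11A and SS18L1 held 2 each.

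The members were unevenly spread over the chromosomes. Their number per Mb of gene body was lowest on chromosome 18, at 3.81, and highest on chromosome 21, at 18.9, followed by chromosome 1 at 15.6 and chromosome 15 at 14.3. There were 8.97 members for each H146-only region on chromosome 21 and 8.65 on chromosome 15. Chromosome 18 was the only one of the 22 with fewer members than H146-only regions, 113 against 262, a ratio of 0.431. Copy number of whole chromosomes and accessibility cannot be told apart here.

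**Figure D3:**
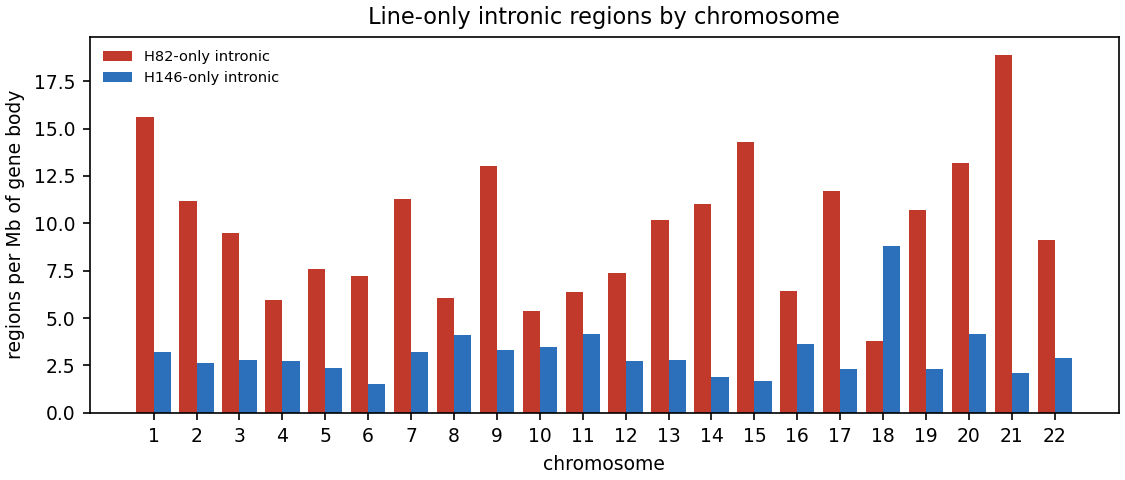
H82-only (red) and H146-only (blue) intronic regions per Mb of protein-coding gene body on each chromosome. Bars start at 0. H82-only regions are more numerous on every chromosome except 18, where they stand at 3.81 per Mb against 8.82 for H146-only regions.

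Members came closer together than H146-only regions did. Consecutive members of a gene were a median of 19036.5 bp apart, against 44547 bp for H146-only regions, which are fewer. A neighbour in the same gene within 5 kb was found for 22.5% of members and 7.35% of H146-only regions, and 21.5% of members and 40.1% of H146-only regions were alone in their gene. These values follow from the number of regions as well as from their placement and were not tested.

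Most members lay over 10 kb from the nearest TSS of a protein-coding gene. Of 12049 members, 1798 lay within 10 kb of it and 3515 over 100 kb away. Distance from the 5′ end of the host gene was taken for the 10118 members in a canonical intron of 1 host gene. Its median was 68.8 kb, with quartiles at 24.3 and 171 kb, and it exceeded 100 kb for 39.6% of them. The median was 83.5 kb for H146-only and 75.9 kb for shared intronic regions. Among the 10118 members in an intron of the canonical transcript of 1 host gene, 28.8% lay in the first intron, where 23.9% of the intron bases of host genes are found. For H146-only regions the share was 26.2%, lower by 2.57 percentage points ± 1.31 (jackknife SE over 22 chromosomes, higher on 16 of 22, two-sided sign-flip permutation test, p = 0.02225, adjusted p = 0.0278 over 5 tests). For shared regions it was 27.5%, a difference of 1.21 ± 0.849 points (higher on 15 of 22, sign-flip permutation p = 0.03096, adjusted p = 0.0310). Both differences are small and lost significance among regions of at least 700 bp, at 2.23 and 1.35 points, and the former also did so without chromosomes 8 and 14, at 2.45 points.

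In base composition the members stood between the other classes. Their GC content was 48.5%, against 42.6% in flanking windows of the same width. These lay 1 kb outside a member and were free of regions of either line, but were not required to be intronic. At least 1 such window was found for 10709 of the 12049 members, and all members entered the comparison, without pairing. The difference of 5.82 points ± 0.223 had the same sign on 22 of 22 chromosomes (sign-flip permutation p = 1e-05, the smallest the test can give, adjusted p = 5e-05). Members were richer in GC than H146-only regions, at 46.3%, by 2.19 ± 0.573 points (17 of 22, sign-flip permutation p = 0.00241, adjusted p = 0.00402). They were poorer than shared regions, at 50.01%, by 1.55 ± 0.365 points (higher on 1 of 22, sign-flip permutation p = 8e-05, adjusted p = 0.0002). Here and for the words, the test takes chromosomes as equally weighted units, so it speaks of the genome and not of replicate cultures. Printed differences and ratios are pooled over the chromosomes, so they and the p-values are not the same statistic.

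Words for transcription factors separated the members from the other intronic regions. Exact matches on both strands to 16 words were counted in each set. Against H146-only regions 10 of 16 words differed at an adjusted p under 0.05, 3 denser in members and 7 sparser. Against shared regions 14 differed, 4 denser and 10 sparser, and against flanks 12 differed, 7 denser and 5 sparser. Adjusted p-values are Benjamini-Hochberg values of the sign-flip permutation test over all 48 tests.

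The largest difference was in TAATCC, the word of OTX2 and CRX. It occurred 1.19 times per kb in members, 0.462 in H146-only and 0.525 in shared intronic regions. The log2 ratio was 1.37 ± 0.0675 against H146-only regions and 1.18 ± 0.0455 against shared ones, with higher values in members on 22 of 22 chromosomes in both (sign-flip permutation, adjusted p = 2.82e-05 each). Against flanks, at 0.883 per kb, the log2 ratio was only 0.43 ± 0.0644 and members were higher on 18 of 22 chromosomes (sign-flip permutation, adjusted p = 0.000569). On chromosomes 17, 19, 20 and 21 the flanks were denser.

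Alu repeats, the most numerous short repeats of the genome, carry TAATCC followed by CAGC, and this setting differed between the sets. It made up 0.249 matches per kb in members, 0.399 in flanks, 0.125 in H146-only and 0.122 in shared regions. Outside it, TAATCC stood at 0.944 per kb in members, 0.484 in flanks, 0.336 in H146-only and 0.403 in shared regions. The log2 ratios became 0.96 ± 0.0523 against flanks, higher on 21 of 22 chromosomes, 1.49 ± 0.0690 against H146-only and 1.23 ± 0.0485 against shared regions (sign-flip permutation, adjusted p = 2.67e-05 each). Only chromosome 19, at 0.537 against 0.542 per kb, did not share the direction against flanks. The same bases read backwards, a control for composition, gave log2 ratios of 0.35, 0.34 and 0.48 against flanks, H146-only and shared regions.

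Among words denser in members than in both other intronic sets, NEUROD1's E-box came next by the size of its ratios. The word CAGATG occurred 1.25 times per kb in members, 0.713 in flanks, 0.908 in H146-only and 0.951 in shared regions. The log2 ratios of 0.81 ± 0.0247, 0.46 ± 0.0310 and 0.39 ± 0.0217 all held on 22 of 22 chromosomes (sign-flip permutation, adjusted p = 2.82e-05 each). Read backwards, the word gave 0.19, 0.27 and 0.15.

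**Figure D4:**
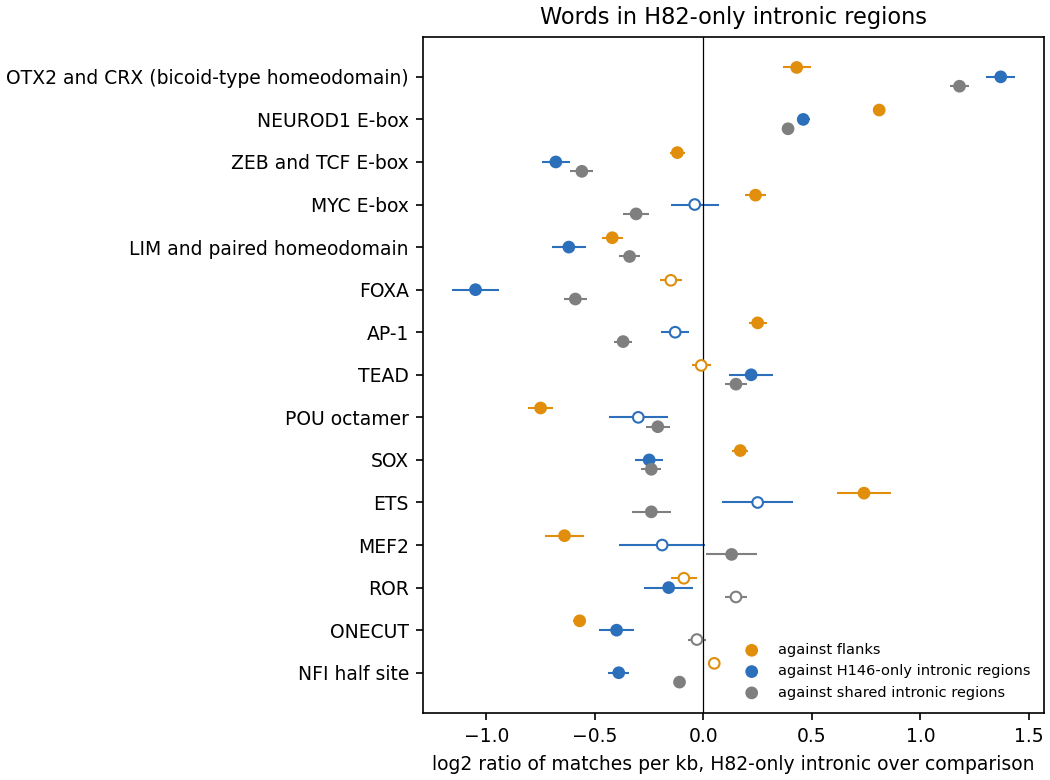
Log2 ratio of word matches per kb, H82-only intronic regions over flanks (orange), H146-only intronic regions (blue) and shared intronic regions (grey), for 15 of the 16 factor words. Bars are jackknife standard errors over 22 chromosomes, filled points have an adjusted p under 0.05, and the OTX2 and CRX word has the highest ratios against H146-only (1.37) and shared regions (1.18).

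FOXA's word TGTTTAC showed the opposite pattern. It occurred 0.132 times per kb in members but 0.273 times in H146-only regions, so the log2 ratio was -1.05 ± 0.110 and negative on 22 of 22 chromosomes (sign-flip permutation, adjusted p = 2.82e-05). Against shared regions, at 0.197, it was -0.59 ± 0.0514 (sign-flip permutation, adjusted p = 2.82e-05). Against flanks, at 0.146 per kb, the pooled log2 ratio was -0.15 ± 0.0507. The test, which weights each chromosome equally, did not call it (sign-flip permutation, adjusted p = 0.32), so this comparison is left undecided. The word of ZEB and TCF factors, CAGGTG, was sparser in members than in H146-only regions by 0.68 ± 0.0644 on the log2 scale, from 1.55 to 0.969 per kb, and sparser than in shared regions as well (-0.56 ± 0.0534, adjusted p = 2.82e-05 each, sign-flip permutation). The homeodomain word TAATTA, which differs from TAATCC in its last bases, was also sparser than in H146-only regions (-0.62 ± 0.0770) and shared regions (-0.34 ± 0.0466).

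Among the remaining words, the AP-1 word TGAGTCA was denser in members than in flanks (0.25 ± 0.0408) and sparser than in shared regions (-0.37 ± 0.0401). The ETS word CCGGAAG was denser than in flanks (0.74 ± 0.125), but read backwards it gave 0.85. The POU octamer ATGCAAAT was sparser than in flanks (-0.75 ± 0.0569), and its reverse gave -0.70. For these last 2 the reversed word moved about as far as the word itself. ONECUT's word TTGATT was sparser than in H146-only regions (-0.40 ± 0.0800), and so was TTGGCA, the NFI word (-0.39 ± 0.0479).

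The words were concentrated at the centres of the members. Outside the Alu setting, TAATCC reached 1.29 and 1.27 per kb in the 100-bp bins on either side of the centre and was 0.421 and 0.456 per kb at 800 to 900 bp from it. At the centre it was 0.373 and 0.304 per kb in H146-only and 0.395 and 0.416 in shared regions, with no peak in either. CAGATG peaked at 1.45 per kb in members, against 0.854 in the same bin of H146-only and 0.979 of shared regions. At 700 to 800 bp from the centre the 3 sets lay close together. There they stood at 0.774, 0.767 and 0.774 on the side of lower coordinates, and 0.749, 0.809 and 0.793 on the other. TGTTTAC was flat across the members, with 0.155 and 0.147 per kb at the centre, and rose to 0.333 in H146-only regions.

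**Figure D5:**
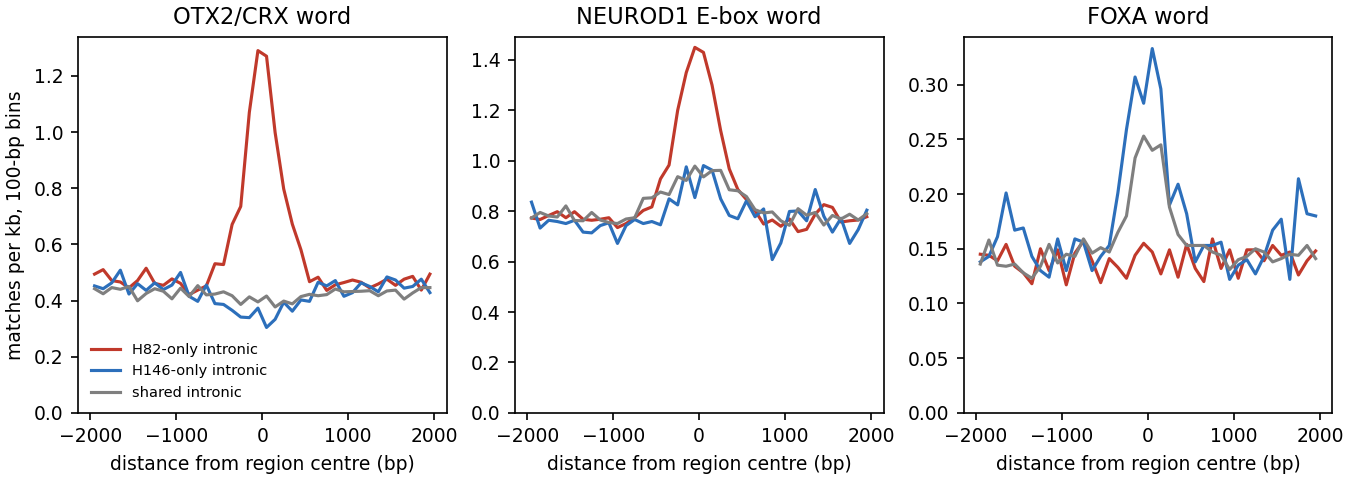
Word matches per kb in 100-bp bins by distance from the region's centre, for the OTX2/CRX word outside the Alu setting, the NEUROD1 E-box word and the FOXA word. Red, H82-only; blue, H146-only; grey, shared intronic regions. The first 2 words peak at the centre of H82-only regions, at 1.29 and 1.45 per kb, and the FOXA word peaks in H146-only regions, at 0.333.

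Both words occurred together in many members. TAATCC outside the Alu setting was found in 54.6% of members and CAGATG in 64.3%, both in 35.8% and neither in 17.0%. In H146-only regions 10.6% held both and 41.3% neither, and in shared regions 18.2% and 32.3%. These shares depend on width, whose medians were 760, 651 and 853 bp, so the members held both words more often than the wider shared regions. With 6-base words, chance matches are frequent in every set.

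Host genes differed in how many of their members carried either word. In PLXNA4 25 of 26 members held TAATCC outside the Alu setting or CAGATG, in ASTN2 25 of 27, in AUTS2 29 of 32 and in MECOM 18 of 20. MECOM had both words in 15 of its 20 members, and ASTN2 in 13 of 27. In ALK 18 of 23 held either, in LSAMP 16 of 21, in CNTNAP2 15 of 19 and in DLG2 16 of 19. Over all members 17.0% held neither. On chromosome 14 the counts were 14 of 27 in LRRC9, 14 of 20 in RTN1, 19 of 25 in SLC35F4 and 12 of 18 in KCNH5. SLC35F4 had about the same share as LSAMP on chromosome 3. XKR6 had 13 of 23. The other genes of highest density were mixed. Either word was found in 5 of 6 members of ATP2A3, 3 of 5 of STAB1 and 10 of 18 of MEGF6. The counts were 6 of 11 in SBNO2, 2 of 6 in DCAF4, 2 of 6 in SEMA6B and 1 of 5 in PIAS4. The median width of the members ran from 663 bp in PLXNA4, 700 in ASTN2 and 705 in MECOM through 874.5 in KCNH5, 879 in AUTS2, 922 in RTN1, 930 in ALK and 966 in SLC35F4 to 1161 in LRRC9 and 1198 in XKR6.

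Among all members, TAATCC was denser where members were narrow and isolated. Outside the Alu setting it fell from 1.19 per kb in the 3010 members under 600 bp wide to 0.790 in the 3020 of 1033 bp or more, while CAGATG went from 1.36 to 1.19. Members with another member within 5 kb had 0.770 TAATCC per kb and 1.18 CAGATG, and those with none within 50 kb had 1.14 and 1.29. Genes with a single member had 1.02 and 1.25, and genes with 10 or more had 0.856 and 1.26. By distance from a TSS, TAATCC was 0.836 per kb within 10 kb and 1.06 beyond 100 kb, while GC content went from 51.4% to 45.4%. These classes overlap and are given as descriptions.

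Between chromosomes, TAATCC outside the Alu setting ranged from 0.537 per kb on chromosome 19 to 1.40 on chromosome 18, the chromosomes with the highest and the lowest GC content of members, 58.4% and 43.4%. CAGATG varied less, from 1.0 on chromosome 14 to 1.44 on chromosome 16. A few members owed high counts to repeated copies of a word. A member of 972 bp in HRH1 at chr3:11166561-11167532 held CAGATG 23 times and TAATCC not at all. Another of 522 bp in TRAF3 at chr14:102877409-102877930 held TAATCC 12 times.

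In TAATCC and CAGATG the members stood close to H82-only regions between genes. In 7970 H82-only intergenic regions of the same width, TAATCC stood at 1.28 and CAGATG at 1.3 per kb, and of the 16 words none differed from the members at an adjusted p under 0.05 in the sign-flip permutation test. The lowest adjusted p was 0.193, for TGAGTCA, the single word with an unadjusted p under 0.05. The absence of a call does not show that the sets are alike. Pooled log2 ratios, members over intergenic regions, were -0.10 ± 0.0338 for TAATCC and -0.06 ± 0.0198 for CAGATG. Both were negative by more than their SE, but were small beside the ratios of 1.37 and 0.46 against H146-only regions. This comparison was chosen after the data were seen.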

How the data were processed

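ATAC-seq was carried out on H82 and H146 cells, untreated or treated with FHD-286. Per the study's methods, the authors trimmed reads with Trim Galore 0.4.4, aligned them to hg38 with bowtie2 2.3.4, removed duplicates with Picard, called regions per sample with MACS2, dropped blacklisted regions and merged those of a line within 500 bp. Whether cut ends were shifted for the transposase is not given in the sources used here. The deposited files hold only region positions in bp, with 0 columns of per-sample values left aside. Merging joins neighbouring sites, and deeper or more numerous libraries list more regions. FHD-286 and replicate error were therefore not tested, and depth is unknown.

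Genes, exons and TSSs (the 5′ end of each gene) came from GENCODE release 44, and sequence from hg38, the build of the files. Words were matched exactly on both strands. Per-chromosome differences were tested by two-sided sign-flip permutation (100000 resamples, seed 1, 22 chromosomes, 0.5 added to counts for ratios), with jackknife SE. The test takes the mean over chromosomes, each weighted equally, whereas printed ratios, differences and their SE are pooled over all bases or regions. A pooled value can therefore stand apart from its p-value. Of 12049 members, 10709 had a usable flank. In simulated data 10 of 10 words with a 1.3-fold difference and 0 of 6 without were called. The simulation drew independent Poisson counts in sets of equal size, with the same chromosome factor in both. Rarer words, repeated copies of a word and sets of unequal size were not simulated, so it does not give error rates for these data. Overlaps differed from bedtools 2.31.1 for 0 regions. Python 3.11.15, numpy 2.4.6 and pandas 2.3.3 were used.

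The members, words and gene lists were chosen with earlier results of these data known. Named were the 12 genes with most members, the 8 densest with at least 5, the 6 with most members and no H146 region, the 4 leading genes of each list and every gene of both study lists; not every gene so named is printed, and some items, 1 word among them, are not reported here. The covered shares, classes of members, repeated words and values by gene size were added after the data were seen. Alternatives were other exon and TSS sets, sharing within 500 bp, a width of at least 700 bp, chromosomes 8 and 14 left out, 1 region per gene, the central 200 bp and intron length.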

Additional observations from a re-analysis of the deposited data

How the results depend on the processing

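Of 453 values recomputed under alternatives, 411 kept their direction and their side of the threshold, 32 fell short of it, 6 newly passed it and 4 counts moved, and none reversed. The OTX2/CRX and NEUROD1 words in all 3 comparisons, the FOXA word against both other intronic sets, and GC content kept their call in each. With a width of at least 700 bp there were 6974 members. The difference in first introns then fell short of significance, at 2.23 points against H146-only and 1.35 against shared regions, and without chromosomes 8 and 14 it was 2.45 points against H146-only regions and fell short too. With 1 region per host gene 6 words were sparser than in shared regions, not 10. In the central 200 bp 9 words differed from shared regions, 6 of them sparser. Leaving out soft-masked repeats was not run, since the reference marks none. No paired analysis was possible because each atlas pools all libraries of its line and no column belongs to 1 sample. For the same reason no library could be left out, and read depth sets no known limit.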
